A study of Homo sapiens with 9 samples.

Results

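Genes of glucose use and of the response to low oxygen were followed in SNU16 cells, a human gastric carcinoma line. The members were taken by symbol: VEGFA, SLC2A1, HK2, PFKP, PFKFB3, ALDOA, PGK1, ENO1, LDHA and NDRG1. Of these 10 genes, 9 had rows in the deposited table, with 41 of its 90652 transcripts, and PGK1 is not analysed here. RNA sequencing covered 9 libraries in 3 groups of 3 replicates, all from wild-type cells: untreated control cells, cells given 7.69 µM 5-fluorouracil (5-FU) and cells given 80 µM hydrogen peroxide (H2O2), each for 24 h. The study, whose stated interest is resistance to chemotherapy through reactive oxygen species, compared each treatment with control. 5-FU is a pyrimidine analogue that inhibits thymidylate synthase, and H2O2 is a reactive oxygen species. The labels do not say whether replicates were separate cultures, so the p-values rest on the scatter of these libraries alone, and that scatter may be technical.

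Glycolysis splits glucose into pyruvate in a chain of cytosolic enzymes, and tumour cells commonly turn that pyruvate into lactate even when oxygen is present. When oxygen falls, prolyl hydroxylases no longer mark the alpha subunit of hypoxia-inducible factor (HIF) for destruction, and HIF switches on the glucose transporter, most glycolytic enzymes and VEGFA, the growth factor that draws blood vessels into tissue. Reactive oxygen species are also known to stabilise HIF in some cells.

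The values are FPKM, fragments per kilobase of transcript, scaled to the mapped fragments of the library, summed over the listed transcripts of each gene. They are mostly not mRNA values. By the GENCODE V29 annotation, every listed transcript of VEGFA, HK2, PFKFB3, ALDOA, ENO1 and LDHA is of the retained-intron class, that is, a spliced RNA that still holds intron sequence. PFKP is the exception, with 1 listed transcript of the protein-coding class, PFKP-201. That model begins 62674 bases into the gene, whose first coding exon begins at 1263, and 39.4% of its bases are coding. Its value is therefore not that of the full-length mRNA. For SLC2A1, 3 transcripts absent from V29 carried 68.8% of its FPKM. For NDRG1, 1 such transcript carried 2.2%. Retained-intron transcripts also share exons with the mRNA, and 48.8% of the bases of LDHA-202, 60.5% of those of ENO1-203 and 73.1% of those of VEGFA-215 lie in exons of V29 protein-coding models. The sources used here do not say how the reads of shared exons were divided among models.

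Many of these RNAs run through a 5′ splice site at which a V29 protein-coding model is joined to its next exon. Of the 36 listed member transcripts of the retained-intron class, 20 run past the end of a coding exon by at least 20 bases into sequence that no V29 protein-coding model of the gene holds as exon, and the others have no such site. The stretches printed here show that boundary in the most abundant such transcript of VEGFA, SLC2A1, HK2, PFKFB3, ALDOA, ENO1 and LDHA, with VEGFA-212 added for its length, because it is the part of each RNA that its mRNA lacks. Each is 40 bases of GRCh38 from the V29 transcript, written 5′ to 3′ on the gene's strand, with the last 20 coding bases in capitals and the first 20 retained bases in lower case. None is printed for NDRG1.
VEGFA-216: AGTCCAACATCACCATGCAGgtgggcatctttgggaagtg
VEGFA-212: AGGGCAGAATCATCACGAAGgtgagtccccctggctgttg
SLC2A1-209: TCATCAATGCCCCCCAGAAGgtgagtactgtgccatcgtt
HK2-203: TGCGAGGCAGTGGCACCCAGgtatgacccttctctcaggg
PFKFB3-213: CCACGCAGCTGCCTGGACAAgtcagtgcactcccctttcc
ALDOA-208: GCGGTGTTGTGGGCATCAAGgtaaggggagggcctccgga
ENO1-203: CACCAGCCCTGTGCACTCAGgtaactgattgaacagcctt
LDHA-211: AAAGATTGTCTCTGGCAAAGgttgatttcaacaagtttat

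All 8 retained stretches open with gt, the usual first bases of an intron. The VEGFA-212 stretch (chr6:43774373-43774412, plus strand) leads into a retained run of 3076 bases, and that transcript keeps 4 whole introns. The VEGFA-216 stretch (chr6:43777646-43777685, plus strand) runs on for 160 bases to the end of the transcript. The ENO1-203 stretch (chr1:8870805-8870844, minus strand) leads into 314 bases, and the ALDOA-208 stretch (chr16:30067642-30067681, plus strand) into a whole intron of 984 bases. The capitals of ENO1-203 end a coding exon at 8367 to 8425 bases from the start of the gene. ENO1-203 also holds a later coding exon, at 8740 to 8798 bases, which ENO1-210 holds without the earlier exon. In LDHA-211 (chr11:18399529-18399568, plus strand) the run is 812 bases. It is 260 bases in SLC2A1-209 (chr1:42943206-42943245, minus strand), 123 in HK2-203 (chr2:74867765-74867804, plus strand) and 82 in PFKFB3-213 (chr10:6226346-6226385, plus strand). VEGFA-215 and LDHA-202, the most abundant listed transcripts of their genes, have no such site and instead begin inside an intron.

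**Figure D1:**
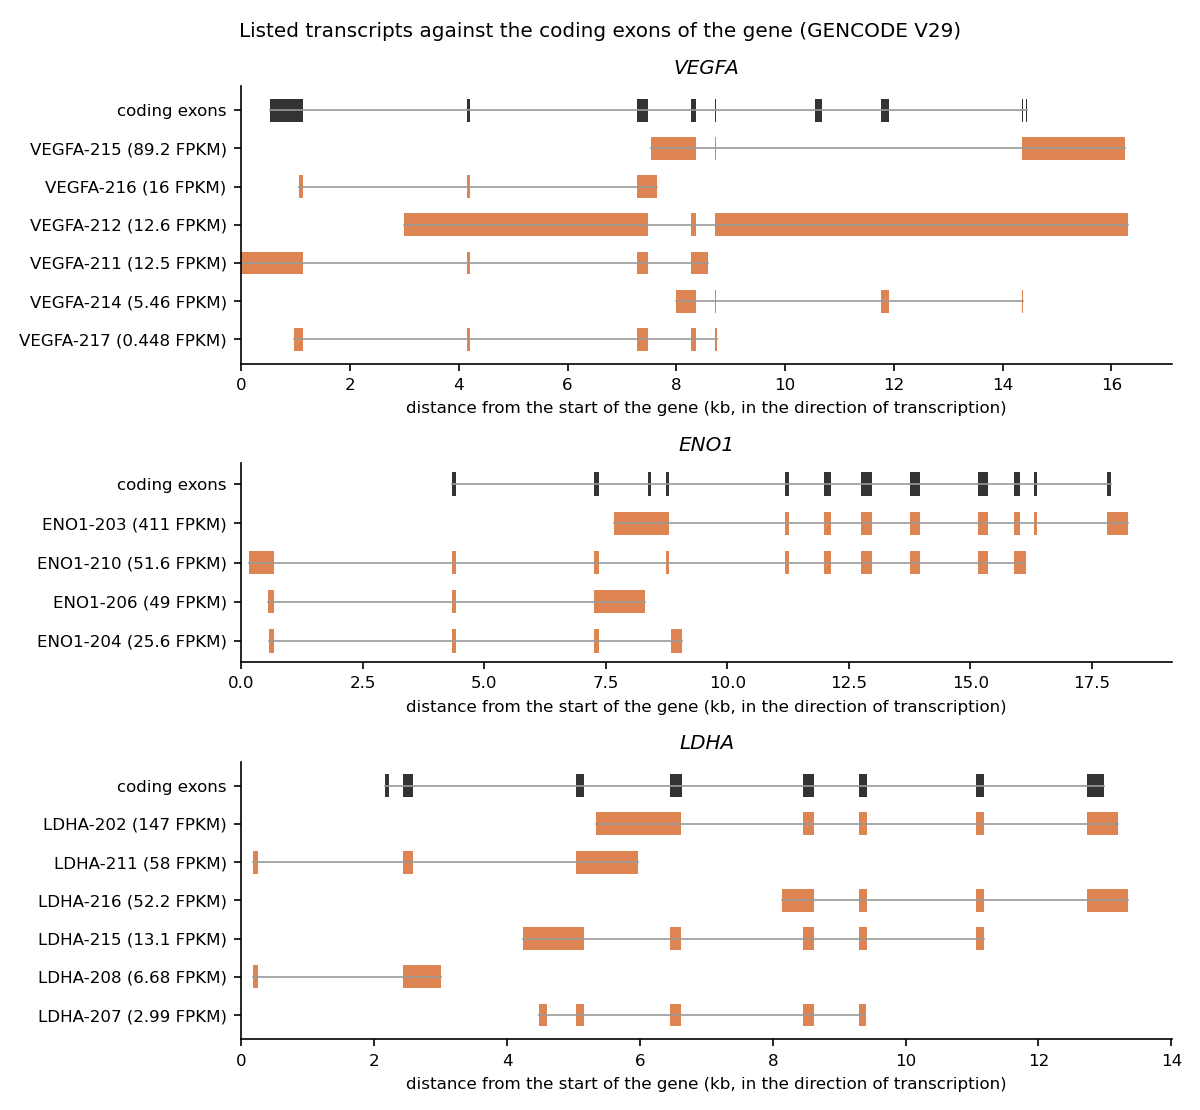
Exons of the listed VEGFA, ENO1 and LDHA transcripts (orange) below the coding exons of all V29 protein-coding models of each gene (black), against distance from the start of the gene in kb; the mean FPKM over 9 libraries stands beside each name. VEGFA-215, at 89.2 FPKM, covers the end of the gene, and VEGFA-212, at 12.6 FPKM, spans most of it with little spliced out.

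No member passed the test in any comparison. Differences were tested with limma on log2(FPKM + 0.5), with all 9 libraries in 1 fit and p-values adjusted over the 9947 genes that reached 0.5 FPKM in at least 3 libraries. All 9 members with rows passed that filter. In 5-FU against control, 0 of 9 members had an adjusted p under 0.05, where 0.774% of all genes did (52 higher and 25 lower). That count of 77 genes fell when any 1 library of the compared groups was left out. It was 0 without 5-FU replicate 2, 1 without control replicate 1 or control replicate 2 and 2 without control replicate 3. It was 3 without 5-FU replicate 3 and 7 without 5-FU replicate 1. With an H2O2 library left out it was 20 (replicate 1), 77 (replicate 2) or 89 (replicate 3). Each of these fits also has fewer libraries, so the fall does not single out a library. At an unadjusted p under 0.05 there were 3 members, VEGFA, ENO1 and PFKP, against 15.5% of all genes. The same 3 were lower in every 5-FU library than in every control library, where 9.56% of all genes were lower without overlap and 22.3% did not overlap in either direction. No member was higher without overlap.

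In H2O2 against control, 0 of 9 members and 0% of all genes had an adjusted p under 0.05. None of the 9 had an unadjusted p under 0.05 in limma, where 9.07% of all genes did, and the groups of all 9 overlapped, where 15.4% of all genes did not. The lowest adjusted p among the members was 0.597, for LDHA. Between 5-FU and H2O2, 0 of 9 members and 0.0704% of all genes had an adjusted p under 0.05. VEGFA and ENO1 had an unadjusted p under 0.05 there, where 11.6% of all genes did. Both were lower in 5-FU without overlap, against 8.32% of all genes lower and 17.7% in either direction. The median log2 difference over the 9 members was 0.15 in 5-FU and 0.17 in H2O2 against control, and over all genes it was 0.03 in both.

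**Figure D2:**
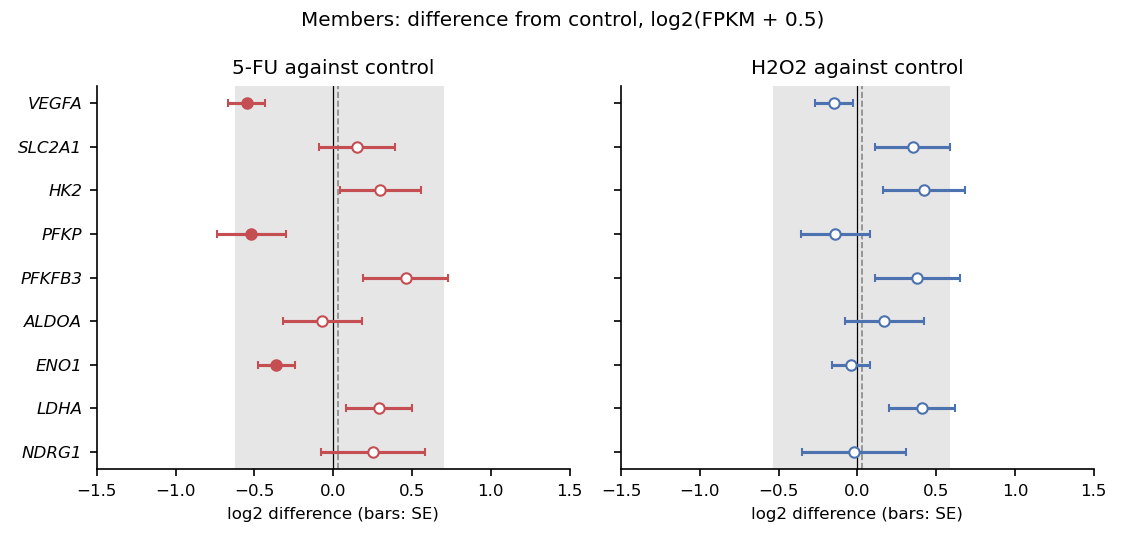
Log2 difference from control of the 9 members, with bars of 1 SE from limma, for 5-FU (left, red) and H2O2 (right, blue); the grey band spans the 5th to 95th percentile of all 9947 genes and the dashed line is their median. Filled points mark members whose 3 treated libraries do not overlap the 3 control libraries: VEGFA, PFKP and ENO1 with 5-FU, at -0.55, -0.52 and -0.36, and none with H2O2.

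VEGFA (ENSG00000112715, chr6:43770184-43786484, plus strand) encodes vascular endothelial growth factor A, the secreted ligand of the endothelial receptors FLT1 and KDR. Its summed FPKM was 153.1, 159.1 and 161.3 in control, 113.4, 102.9 and 107.9 in 5-FU, and 140.0, 157.0 and 131.4 in H2O2. The 5-FU libraries were the 3 lowest of the 9, clear of both other groups, while 1 H2O2 library lay within the control range. Against control, VEGFA stood at -0.55 ± 0.12 (log2 difference ± SE, n = 3 each; limma adjusted p = 0.0687) in 5-FU and at -0.15 ± 0.12 (adjusted p = 0.735) in H2O2. Set directly against H2O2, the 5-FU value was -0.40 ± 0.12 (adjusted p = 0.236), so the treatments were not shown to differ. Over 18 other settings of the analysis the 5-FU difference stayed between -0.58 and -0.51 with adjusted p-values from 0.0532 to 0.198. Several of these settings, such as the filter or a left-out H2O2 library, cannot move the difference itself. In these bulk libraries fewer cells that express a gene and less of its RNA per cell cannot be told apart.

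Markers of the epithelial cell type that the line comes from were measured beside this result. Of 8 such markers 6 had rows, all above 0, and their summed FPKM lay between 294.4 and 383.1 in control, between 183.2 and 239.9 in 5-FU, and between 263.3 and 408.3 in H2O2. The summed level was thus lowest in the 5-FU libraries, as VEGFA was, and its part in the VEGFA result was not tested. Of those 6 markers, KRT8 and KRT19 were lower in 5-FU without overlap, at -1.12 ± 0.29 and -0.65 ± 0.20 (log2 difference ± SE; limma adjusted p = 0.116 and 0.166). KRT8 averaged 227.5 ± 57.5 FPKM (SD, n = 3) in control and 103.3 ± 18.9 in 5-FU. The other 4 overlapped control in 5-FU, EPCAM at -0.44, KRT18 at -0.13, CDH1 at 0.18 and MUC13 at 0.40 on the log2 scale. Endothelial markers with rows, 2 of 5, summed to at most 0.881 FPKM in any library, with VWF at 0 in all. Fibroblast markers, 4 of 6, summed to at most 0.724, with COL1A2, COL3A1 and PDGFRB at 0, and leukocyte markers, 2 of 5, to at most 0.0176, with PTPRC at 0. All of these are values of listed transcripts, so a 0 does not show that the mRNA was absent.

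SLC2A1 (ENSG00000117394, chr1:42926169-42958868, minus strand) encodes GLUT1, the transporter that lets glucose into most cells. Its FPKM was 79.0, 61.4 and 43.9 in control, 64.6, 66.6 and 67.4 in 5-FU, and 91.8, 54.2 and 89.6 in H2O2. The 5-FU libraries were close together inside the wide control range, and 2 of 3 H2O2 libraries lay above every control library. Its log2 difference from control was 0.15 ± 0.24 (SE; limma adjusted p = 0.820) in 5-FU and 0.35 ± 0.24 (adjusted p = 0.681) in H2O2. Without control replicate 3, the lowest library, the 5-FU difference changed sign to -0.07.

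HK2 and PFKFB3 sit at the entry and at the switch of the pathway, and both had the lowest levels of the members. HK2 (ENSG00000159399, listed span chr2:74854333-74867907, plus strand) is the hexokinase that traps glucose as glucose 6-phosphate. It stood at 1.37, 1.7 and 2.0 FPKM in control, 2.93, 1.95 and 1.78 in 5-FU, and 2.72, 1.58 and 3.20 in H2O2. PFKFB3 (ENSG00000170525, listed span chr10:6222708-6226447, plus strand) makes fructose 2,6-bisphosphate, the activator of phosphofructokinase. It was listed at 0.691, 0.679 and 1.09 FPKM in control, 1.81, 1.62 and 0.681 in 5-FU, and 1.34, 0.930 and 1.36 in H2O2. For each gene 2 of 3 H2O2 libraries exceeded every control library and the other did not, so the groups overlapped. The log2 differences of HK2 were 0.30 ± 0.26 in 5-FU and 0.42 ± 0.26 in H2O2 (SE; limma adjusted p = 0.624 and 0.647), and those of PFKFB3 were 0.46 ± 0.27 and 0.38 ± 0.27 (adjusted p = 0.457 and 0.695). Leaving out 5-FU replicate 1 gave 0.12 for HK2 and 0.28 for PFKFB3 in 5-FU. Leaving out control replicate 1 gave 0.19 for HK2 and leaving out 5-FU replicate 3 gave 0.76 for PFKFB3 there. Leaving out H2O2 replicate 2 or replicate 3 gave 0.67 or 0.25 for HK2 in H2O2. On the log2(FPKM + 0.5) scale, differences of genes at this level are understated.

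PFKP (ENSG00000067057, listed span chr10:3129007-3136793, plus strand) is the platelet form of phosphofructokinase, the committed step of glycolysis. It is the only member here whose value is that of a protein-coding model, but that model covers only the end of the gene. Its FPKM was 18.6, 22.9 and 20.7 in control, 18.5, 12.9 and 12.1 in 5-FU, and 24.2, 19.2 and 14.1 in H2O2. The highest 5-FU library sat just below the lowest control library, and the H2O2 libraries reached both above and below control. The log2 difference was -0.52 ± 0.22 (SE; limma adjusted p = 0.292) in 5-FU and -0.14 ± 0.22 (adjusted p = 0.886) in H2O2, and without H2O2 replicate 3 the latter became 0.06. ALDOA (ENSG00000149925, chr16:30064164-30070457, plus strand), the aldolase that splits the sugar into trioses, gave 53.5, 53.1 and 39.5 FPKM in control, 61.3, 39.2 and 40.1 in 5-FU, and 52.1, 41.1 and 75.5 in H2O2. Its 3 groups overlapped throughout, with a log2 difference of -0.07 ± 0.25 in 5-FU and 0.17 ± 0.25 in H2O2 (adjusted p = 0.927 and 0.862). The sign of either ALDOA value turned when single libraries were left out, and the H2O2 value was -0.06 without H2O2 replicate 3.

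ENO1 (ENSG00000074800, chr1:8861002-8879092, minus strand), the enolase that makes phosphoenolpyruvate, was the most abundant member. Its FPKM was 648.3, 583.3 and 526.8 in control, 484.9, 439.4 and 439.2 in 5-FU, and 533.8, 554.1 and 620.7 in H2O2. Every 5-FU library was below every library of the other groups, and the H2O2 libraries lay inside the control range. The log2 difference from control was -0.36 ± 0.12 (SE; limma adjusted p = 0.197) in 5-FU and -0.04 ± 0.12 (adjusted p = 0.949) in H2O2, and 5-FU against H2O2 it was -0.32 ± 0.12 (adjusted p = 0.350). The H2O2 value was 0.04 without control replicate 1 and 0.01 without H2O2 replicate 1. The epithelial marker sum given beside VEGFA, led by KRT8, was lowest in the same 5-FU libraries, and its part in the ENO1 result was not tested.

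LDHA (ENSG00000134333, chr11:18394561-18407740, plus strand), the lactate dehydrogenase subunit that turns pyruvate into lactate, overlapped control in both treatments. Its FPKM was 258.8, 258.5 and 188.6 in control, 242.2, 275.2 and 349.5 in 5-FU, and 313.3, 241.4 and 394.6 in H2O2. In each treatment 2 of 3 libraries lay above every control library and the other fell inside the control range. The log2 difference was 0.29 ± 0.21 (SE; limma adjusted p = 0.543) in 5-FU and 0.41 ± 0.21 (adjusted p = 0.597) in H2O2. Without control replicate 3 they were 0.14 and 0.26, without 5-FU replicate 3 the former was 0.15, and without H2O2 replicate 3 the latter was 0.24. V29 names 6 LDHA, 4 ENO1, 2 ALDOA and 1 HK2 pseudogenes, none of which has rows here, so reads shared with these copies make the 4 values uncertain.

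NDRG1 (ENSG00000104419, chr8:133237176-133284283, minus strand) encodes a cytoplasmic protein known for its strong induction by hypoxia and by metal chelation. Its FPKM was 246.6, 219.2 and 217.3 in control, 312.7, 237.2 and 267.4 in 5-FU, and 120.8, 241.0 and 387.9 in H2O2. The H2O2 group held both the lowest and the highest of the 9 libraries. The log2 difference was 0.25 ± 0.33 (SE; limma adjusted p = 0.775) in 5-FU and -0.02 ± 0.33 (adjusted p = 0.992) in H2O2. Without H2O2 replicate 1 the H2O2 value was 0.43, so its sign rested on that library.

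**Figure D3:**
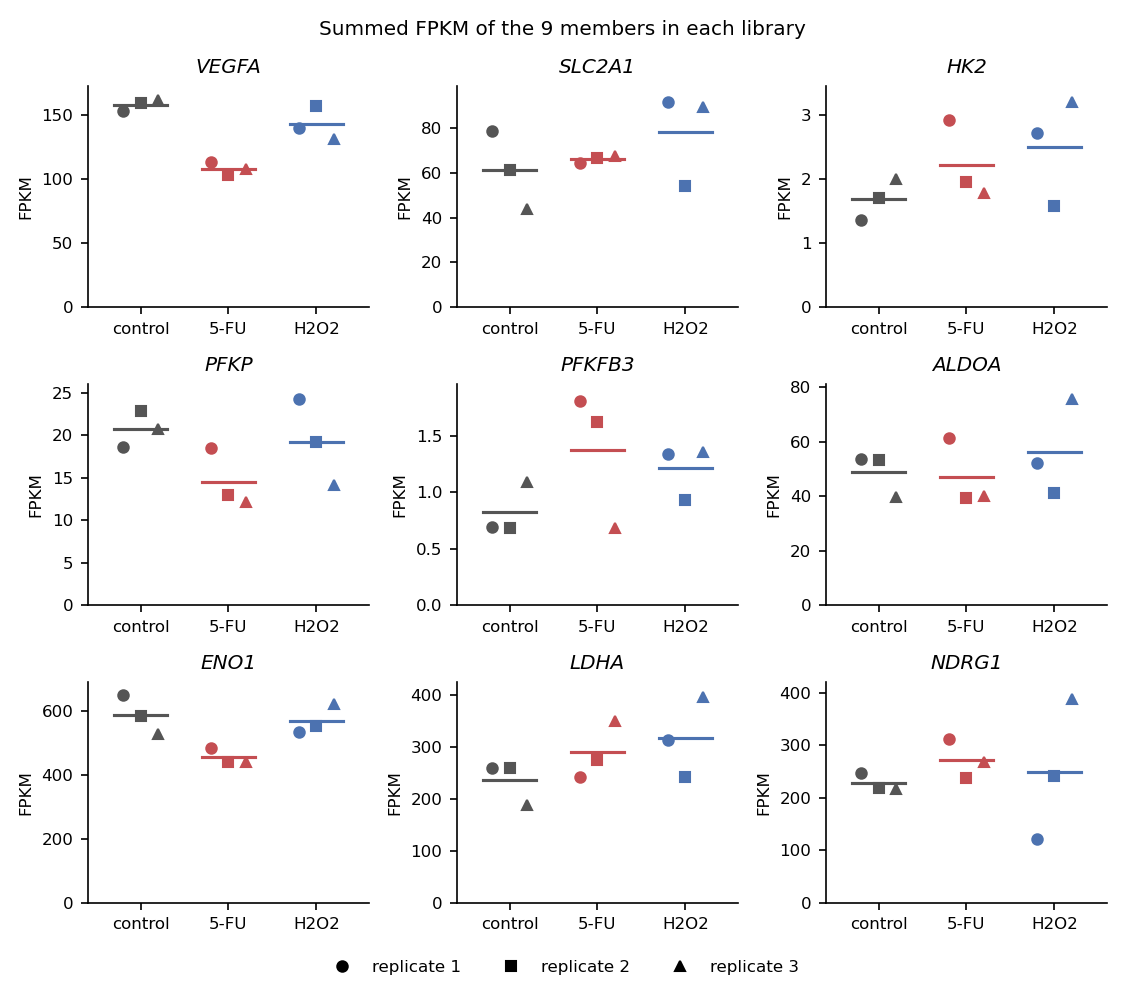
Summed FPKM of each member in each of the 9 libraries, by group, with a line at the group mean and a marker shape for the replicate number; every vertical axis starts at 0. VEGFA in 5-FU lies between 102.9 and 113.4, below all control and H2O2 libraries, while NDRG1 in H2O2 spreads from 120.8 to 387.9.

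FPKM is scaled by transcript length, so levels can be set side by side across genes. By the mean over the 9 libraries ENO1 stood highest at 536.7 FPKM, followed by LDHA at 280.2, NDRG1 at 250.0 and VEGFA at 136.2. SLC2A1 followed at 68.7, ALDOA at 50.6 and PFKP at 18.1, and HK2 at 2.14 and PFKFB3 at 1.13 were lowest. LDHA and NDRG1 overlapped in all 3 groups and their order is not shown. NDRG1 and VEGFA overlapped in H2O2, SLC2A1 and ALDOA in control and H2O2, and HK2 and PFKFB3 in 5-FU. All other neighbours in that order were apart in every group. These levels count the listed transcripts and not the whole gene.

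The transcripts behind the sums were tested in the same way. None of the 40 tested member transcripts had an adjusted p under 0.05 in 5-FU against control, where 0.00442% of all 22618 tested transcripts did, and none in H2O2 against control, where 0.0133% did, or in 5-FU against H2O2, where 0.0133% did. At an unadjusted p under 0.05 there were 7 in 5-FU (10.4% of all transcripts), 6 in H2O2 (7.6%) and 4 between the treatments (8.45%). Groups did not overlap for 9 in 5-FU (17.8% of all transcripts), for 7 in H2O2 (13.7%) and for 4 between the treatments (14.3%). Transcripts of a gene share exons and reads, so these counts are not of independent features.

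The most abundant VEGFA transcript held a steady share. VEGFA-215 held 65.4% ± 0.384 (SD, n = 3) of the gene's sum in control, 65.5% ± 2.05 in 5-FU and 65.5% ± 1.72 in H2O2. Its own FPKM was 99.7, 103.9 and 106.3 in control, 72.5, 66.6 and 73.2 in 5-FU, and 89.0, 104.0 and 87.6 in H2O2, and its log2 difference in 5-FU was -0.54 ± 0.14 (SE; limma adjusted p = 0.235). The rest of VEGFA, summed without VEGFA-215 in an analysis added after the data were seen, gave -0.55 ± 0.13 (adjusted p = 0.0932), so the lower 5-FU value did not rest on that transcript alone. VEGFA-216, whose printed junction leads into 160 retained bases, measured 19.7, 22.8 and 23.8 FPKM in control, 16.5, 5.95 and 12.1 in 5-FU, and 10.4, 18.0 and 15.1 in H2O2. It was below control in every treated library, at -1.01 ± 0.34 (adjusted p = 0.352) in 5-FU and -0.62 ± 0.34 (adjusted p = 0.697) in H2O2. Without 5-FU replicate 2, the lowest library, the 5-FU value was -0.62.

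Other VEGFA transcripts kept different patterns. VEGFA-214 measured 4.08, 5.06 and 4.42 FPKM in control, 4.95, 5.79 and 2.22 in 5-FU, and 8.68, 7.53 and 6.42 in H2O2. Its H2O2 libraries were above all others, at 0.67 ± 0.30 against control (log2 difference ± SE; limma adjusted p = 0.655). VEGFA-212, the model with 4 whole introns, measured 13.3, 13.2 and 12.9 FPKM in control, 11.8, 9.30 and 10.6 in 5-FU, and 14.5, 14.3 and 13.2 in H2O2, lowest in the 5-FU libraries. VEGFA-211, which ends inside an intron after a run of 228 bases, overlapped between all groups at 7.49 to 17.0 FPKM.

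SLC2A1 was divided among 7 listed transcripts. SLC2A1-215, a model absent from V29, took 47.4%, 49.9% and 45.7% of the gene's FPKM in control and 37.9%, 44.5% and 43.1% in 5-FU. These shares did not overlap, with an exact two-sided permutation p of 0.1, the smallest that 3 against 3 libraries allow. Such shares were compared for 6 members in each of 3 comparisons, and all the others overlapped. The p-value is not adjusted for these comparisons, so no shift of the share is shown. SLC2A1-211, also absent from V29, measured 6.39, 4.54 and 4.66 FPKM in control, 7.41, 6.15 and 8.34 in 5-FU, and 8.52, 7.01 and 8.33 in H2O2. All 3 H2O2 libraries were above control for SLC2A1-211, at 0.58 ± 0.20 (log2 difference ± SE; limma adjusted p = 0.586). Its 5-FU libraries overlapped control, at 0.46 ± 0.20 (adjusted p = 0.465). SLC2A1-207, a single-exon model, measured 5.87, 6.78 and 3.04 FPKM in control, 10.1, 7.18 and 10.2 in 5-FU, and 10.0, 6.22 and 11.5 in H2O2, with all 5-FU libraries above control at 0.80 ± 0.32 (adjusted p = 0.426). Without control replicate 3 that value was 0.49. The H2O2 libraries of SLC2A1-207 overlapped control, at 0.79 ± 0.32 (adjusted p = 0.627).

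ENO1-203, whose junction is among those printed, carried 77.4% ± 3.33 (SD, n = 3) of ENO1 in control, 76.9% ± 2.49 in 5-FU and 75.8% ± 5.43 in H2O2. Its FPKM was 476.9, 460.5 and 419.7 in control, 363.5, 350.1 and 333.5 in 5-FU, and 424.1, 434.7 and 431.9 in H2O2. The 5-FU libraries were again the 3 lowest, at -0.37 ± 0.12 against control (log2 difference ± SE; limma adjusted p = 0.316). ENO1-210, ENO1-206 and ENO1-204 overlapped between 5-FU and control, at means of 51.6, 49.0 and 25.6 FPKM over the 9 libraries.

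The division of LDHA among its transcripts differed between libraries of the same group. LDHA-202 held 75.7%, 64.4% and 17.0% of the gene in control, 20.3%, 70.8% and 67.4% in 5-FU, and 66.9%, 14.2% and 52.5% in H2O2. Control replicate 3, 5-FU replicate 1 and H2O2 replicate 2 were the low libraries, 1 in each group. In the same 3 libraries LDHA-216 measured 78.9, 114.7 and 111.1 FPKM, and in the other 6 it measured 7.75 to 54.6. The exons of LDHA-216 lie to 65.7% within those of LDHA-202. The sum of all LDHA transcripts was between 188.6 and 242.2 FPKM in these 3 libraries, and between 258.5 and 394.6 in the other 6. These 3 libraries thus had the lowest LDHA sums, and in each treatment they include the library inside the control range. The part of the division in the summed values was not tested. LDHA-211, whose printed junction neither of them holds, shares no exon base with LDHA-216 and ranged from 39.2 to 92.0 FPKM.

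**Figure D4:**
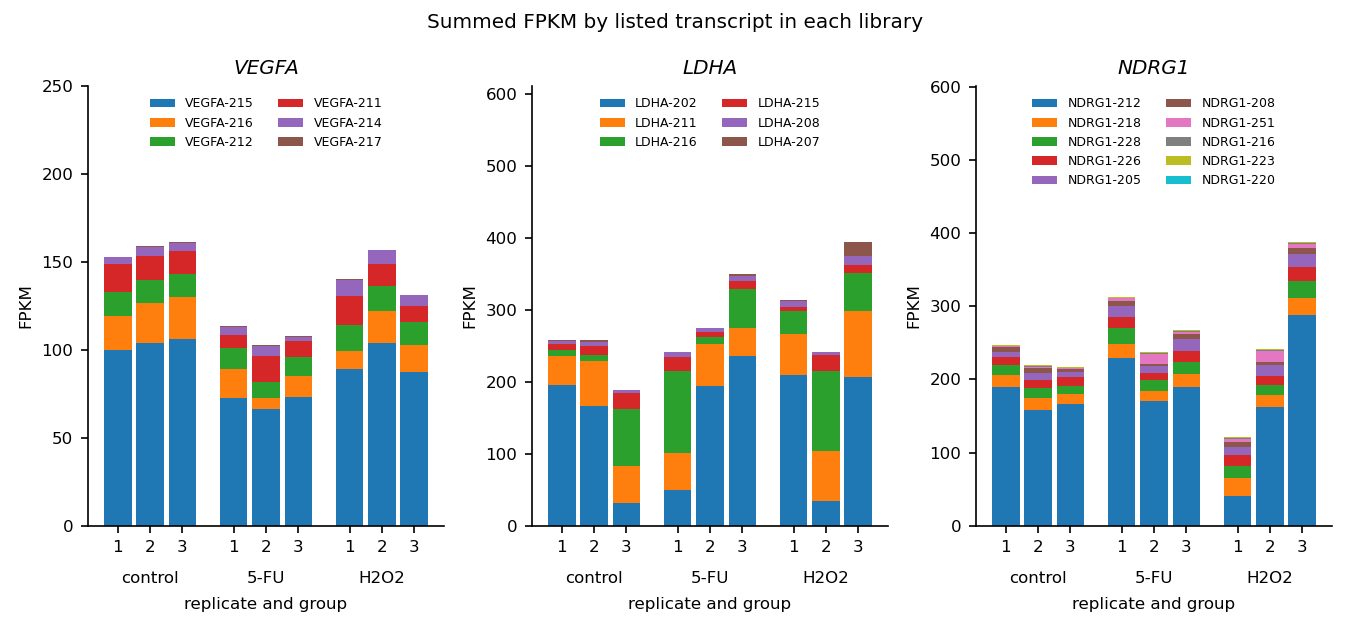
Summed FPKM of VEGFA, LDHA and NDRG1 in each library, stacked by listed transcript with the most abundant at the base. VEGFA-215 keeps about the same share of the VEGFA bars in all 9 libraries. In 1 library of each group the LDHA bar holds less LDHA-202 and more LDHA-216, and is lower than in the other libraries. NDRG1-212 is small in H2O2 replicate 1 at 41.1 FPKM.

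The NDRG1 spread in H2O2 came with 1 transcript. NDRG1-212 measured 190.1, 157.6 and 166.9 FPKM in control, 229.2, 170.5 and 190.1 in 5-FU, and 41.1, 162.1 and 287.9 in H2O2. The other NDRG1 transcripts together, again an analysis added after the data were seen, gave 56.5, 61.6 and 50.4 FPKM in control, 83.5, 66.7 and 77.3 in 5-FU, and 79.7, 78.9 and 100 in H2O2. All 6 treated libraries were above all 3 control libraries in that sum, at 0.43 ± 0.15 (log2 difference ± SE; limma adjusted p = 0.205) in 5-FU and 0.61 ± 0.15 (adjusted p = 0.329) in H2O2.

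Of the single transcripts, NDRG1-205 measured 7.34, 9.29 and 7.25 FPKM in control, 14.0, 9.40 and 15.9 in 5-FU, and 11.1, 15.1 and 17.1 in H2O2. NDRG1-251, absent from V29, was lower still in control, at 1.54, 2.20 and 1.26 FPKM against 3.56, 13.5 and 2.46 in 5-FU and 3.88, 15.0 and 5.84 in H2O2. Both were above control in every treated library, with replicate 2 of each treatment far above the others for NDRG1-251. Their log2 differences were 0.66 ± 0.24 and 1.37 ± 0.60 in 5-FU, and 0.81 ± 0.24 and 1.83 ± 0.60 in H2O2 (SE; limma adjusted p = 0.391, 0.472, 0.545 and 0.586). Without 5-FU replicate 2 the 5-FU value of NDRG1-251 was 0.70. The NDRG1-218 libraries of H2O2, at 23.6, 17.2 and 23.9 FPKM, were also above control, at 16.2, 16.8 and 13.4. Its 5-FU libraries, at 18.8, 13.8 and 17.2, overlapped control. The log2 differences of NDRG1-218 were 0.10 ± 0.20 in 5-FU and 0.46 ± 0.20 in H2O2 (SE; limma adjusted p = 0.903 and 0.650). NDRG1-205, NDRG1-251 and NDRG1-218 are given in full because each had an unadjusted p under 0.05 in limma against control, NDRG1-218 only in H2O2. NDRG1-228 was above control without overlap only in 5-FU, at 0.46 ± 0.25, and NDRG1-226 only in H2O2, at 0.45 ± 0.23. NDRG1-208, NDRG1-216 and NDRG1-223 overlapped control in both treatments, at 0.05 to 0.27.

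Ordered by likeness to VEGFA, the members fell apart into a few near it and many far from it. Likeness was the root mean square difference between 2 genes over the 9 libraries, after centring log2(FPKM + 0.5) on the control mean, among 4504 genes with a mean of at least 2 FPKM. ENO1 was the closest member at 0.18, at rank 81, and PFKP the next at 0.21, at rank 164, against a median of 0.49 over all genes compared. ALDOA was at 0.47, SLC2A1 at 0.60, NDRG1 at 0.63, LDHA at 0.66 and HK2 at 0.66. PFKFB3, with a mean under 2 FPKM, was not ranked. Scatter between the replicates of a gene also adds to this measure. The 3 genes nearest VEGFA were the long non-coding RNA LINC01004 at 0.088, GAR1, a protein of small nucleolar ribonucleoproteins, at 0.095, and SNHG29 at 0.097. SNHG29, a small nucleolar RNA host gene, measured 245.1, 251.1 and 249.8 FPKM in control, 183.2, 178.8 and 158.2 in 5-FU, and 226.5, 266.8 and 237.4 in H2O2. It was low in the same 3 libraries as VEGFA, which follows from its choice by likeness over these libraries.

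The upstream sequence of the members was searched for the short motif that HIF binds. The RefSeq (GRCh38.p14) promoters used here covered 7 of the 9 members, with 15 windows of 250 bases before a start. VEGFA and NDRG1 had no promoter there and were not searched. The motif was ACGTG or GCGTG on both strands, with overlapping matches merged, and 12 of the 15 windows (80.0%) held at least 1, against 43.2% of all 35116 windows. ACGTG alone is in 18.5% of all windows and GCGTG in 32.2%. The HK2 windows held 4 and 3 separate stretches, the LDHA windows 3 and 1, and the PFKP windows 3, 1, 0 and 0. The SLC2A1 window had none. Of all windows 5.44% held at least 3. That share is per window and does not apply to the highest of several windows of a gene. Several windows belong to 1 gene, some ALDOA windows overlap, and a match is a description of these letters, not a site.

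The rest of glycolysis was read from lists. Of 29 other glycolytic enzymes 14 were tested, 0 passed the adjusted threshold in either comparison with control, and 3 had an unadjusted p under 0.05 in each in limma, where 15.5% of all genes did in 5-FU and 9.07% in H2O2. In 5-FU 1 of the 3 was higher, ENO2, and 2 were lower. These were PFKL at -0.55 ± 0.20 and HKDC1 at -0.36 ± 0.16 (log2 difference ± SE; limma adjusted p = 0.235 and 0.321). In H2O2 2 were higher, ENO2 and PFKM, and 1 lower, PFKL. There PFKM stood at 0.64 ± 0.19 and PFKL at -0.53 ± 0.20 (adjusted p = 0.437 and 0.498). The median log2 difference of the 14 enzymes was 0.06 in 5-FU and 0.20 in H2O2. GAPDH, the glyceraldehyde phosphate dehydrogenase, averaged 537.1 ± 32.9 FPKM (SD, n = 3) in control, 538.3 ± 84.8 in 5-FU and 638.4 ± 89.5 in H2O2. PKM, the pyruvate kinase, averaged 114.3 ± 9.79, 103.3 ± 42.3 and 124.2 ± 16.4. Neither passed the test, with adjusted p-values of 0.989 and 0.668 for GAPDH and of 0.735 and 0.928 for PKM.

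ENO2, the enolase best known from neurons and named here after its values were seen, stood closer to the threshold than any member. It measured 6.57, 8.66 and 6.51 FPKM in control, 22.6, 16.0 and 13.1 in 5-FU, and 16.3, 11.7 and 18.1 in H2O2, so that every treated library was above every control library. Its log2 difference was 1.17 ± 0.23 (SE; limma adjusted p = 0.0550) in 5-FU and 1.02 ± 0.23 (adjusted p = 0.331) in H2O2. In 5-FU its adjusted p was 0.0483 with a minimum of 1 FPKM, 0.0327 with array weights and 0.0488 without H2O2 replicate 2. These 3 were the only ones under 0.05 among 18 alternatives, over which it ran from 0.0327 to 0.163.

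Transport and pyruvate oxidation gave less. Of 27 genes 14 were tested and 0 passed, with medians of 0.03 in 5-FU and 0.05 in H2O2 and 1 and 2 genes at an unadjusted p under 0.05 (15.5% and 9.07% of all genes). BSG, the chaperone of lactate transporters, averaged 49.5 ± 9.18 FPKM (SD, n = 3) in control, 50.2 ± 9.15 in 5-FU and 54.7 ± 2.28 in H2O2. PDHA1, a subunit of pyruvate dehydrogenase, averaged 14.8 ± 3.71, 17.8 ± 2.38 and 16.3 ± 2.74. Neither gene's groups were apart.

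The HIF pathway was read only through the listed transcripts of 13 of 17 genes. Of these genes 0 passed and 2 in each comparison had an unadjusted p under 0.05 in limma, where 15.5% of all genes did in 5-FU and 9.07% in H2O2. The medians were 0.20 in 5-FU and 0.19 in H2O2. VHL, which binds hydroxylated HIF for destruction, averaged 7.27 ± 5.34 FPKM (SD, n = 3) in control, 7.85 ± 3.81 in 5-FU and 10.8 ± 1.56 in H2O2, and the HIF coactivator EP300 averaged 7.77 ± 1.25, 7.59 ± 0.882 and 6.86 ± 1.33. EGLN3, a HIF prolyl hydroxylase that HIF itself induces and that was named after its values were seen, measured 1.78, 4.46 and 4.14 FPKM in control, 6.87, 4.42 and 1.69 in 5-FU, and 8.25, 5.58 and 12.4 in H2O2. Its H2O2 libraries were all above control, at 1.24 ± 0.46 (log2 difference ± SE; limma adjusted p = 0.487), and its 5-FU libraries overlapped control, at 0.20 ± 0.46 (adjusted p = 0.884).

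Other hypoxia-induced genes were tested in 22 of 33 cases and 0 passed. Their log2 difference was above 0 for 16 genes in 5-FU and 18 in H2O2, where 53.8% and 53.9% of all genes were above 0, and the medians were 0.18 and 0.29. At an unadjusted p under 0.05 in limma there were 4 in 5-FU and 5 in H2O2, all higher, against 15.5% and 9.07% of all genes in either direction. DDIT4, an inhibitor of mTORC1 signalling, measured 79.4, 83.5 and 99.7 FPKM in control, 80.2, 86.6 and 93.6 in 5-FU, and 92.4, 136.5 and 120.3 in H2O2, with 1 H2O2 library inside the control range (adjusted p = 0.511). TFRC, the transferrin receptor, averaged 58.4 ± 24.3 FPKM (SD, n = 3) in control, 67.8 ± 30.3 in 5-FU and 56.1 ± 11.4 in H2O2 and overlapped throughout.

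**Figure D5:**
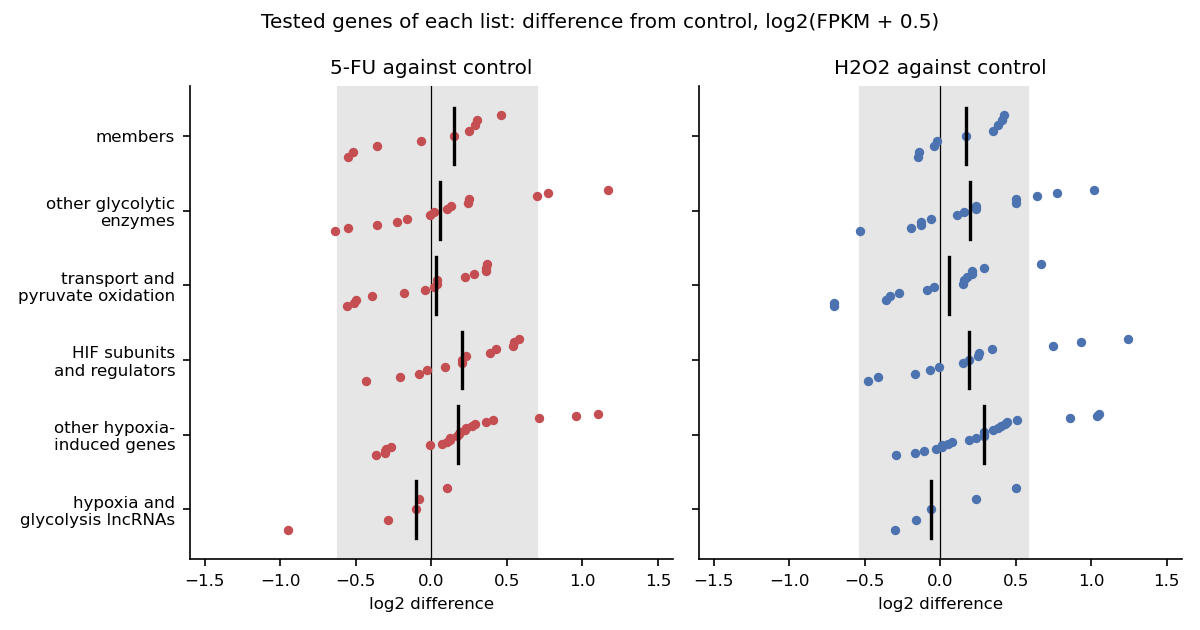
Log2 difference from control of every tested gene of the members and of 5 other lists, for 5-FU (left, red) and H2O2 (right, blue); black bars are list medians and the grey band spans the 5th to 95th percentile of all 9947 genes. The medians lie between -0.10 and 0.29, and no point passed the adjusted threshold.

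The partners of VEGFA were mostly absent from the table or below the filter. Of 12 other VEGF and angiopoietin ligands and receptors, 6 had rows and 2, VEGFB and NRP2, were tested with 0 calls. Against control, 0 had an unadjusted p under 0.05 in limma, where 15.5% of all genes did in 5-FU and 9.07% in H2O2. VEGFB averaged 0.542, 0.705 and 0.954 FPKM in the control, 5-FU and H2O2 groups, and the coreceptor NRP2 averaged 0.762, 0.794 and 0.522. The receptor KDR was listed at 0 in all 9 libraries, which does not show that its mRNA was absent. The NDRG1 relatives NDRG2 and NDRG4, 2 of 3 listed genes, were tested with 0 calls and medians of 0.63 in 5-FU and 0.29 in H2O2. In 5-FU both had an unadjusted p under 0.05 in limma, where 15.5% of all genes did, at log2 differences of 0.60 and 0.66 (adjusted p = 0.246 for each).

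Of 11 long non-coding RNAs named for hypoxia or for a glycolytic neighbour, 5 were tested and 0 passed. In each comparison with control 1 had an unadjusted p under 0.05 in limma, where 15.5% of all genes did in 5-FU and 9.07% in H2O2. SLC2A1-DT, which is transcribed away from the SLC2A1 promoter, measured 3.46, 3.96 and 2.93 FPKM in control, 3.99, 3.58 and 3.53 in 5-FU, and 5.19, 4.67 and 5.36 in H2O2. Its H2O2 libraries were all above control, at 0.50 ± 0.16 (log2 difference ± SE; adjusted p = 0.460), where SLC2A1 itself overlapped. HIF1A-AS3 averaged 7.72 ± 1.14 FPKM (SD, n = 3) in control, 7.25 ± 0.384 in 5-FU and 9.40 ± 2.48 in H2O2. MIR210HG, the host of the hypoxia microRNA miR-210 and named after its values were seen, measured 6.20, 3.48 and 5.66 FPKM in control, 2.04, 2.76 and 2.27 in 5-FU, and 5.44, 7.38 and 2.62 in H2O2. Its 5-FU libraries were all below control, as those of VEGFA and ENO1 were, at -0.95 ± 0.33 (adjusted p = 0.200).

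Depth is unknown; the FPKM of all listed transcripts came to 56096.4 in the lowest library and 60642.1 in the highest. On the first principal component the control libraries lay within -18.72 to -18.07, while 5-FU replicate 3 stood apart from its group at 33.28, and on the second H2O2 replicate 3 stood at -41.86. With the replicates numbered 3 of both treatments left out, VEGFA in 5-FU was at -0.54 and ENO1 at -0.34 against control, both still without a call.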

How the data were processed

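Libraries were made from total RNA with a directional kit, per the labels' protocols. The authors deposited FPKM per transcript, in 1 column per library. The tools HISAT2 2.0.5, StringTie and edgeR 3.22.5 and build GRCh38 come from the submitters' processing notes. The roles of these tools, the annotation release and the use of strand are not stated in the sources used here, so values that overlap antisense genes are uncertain.

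FPKM were summed per gene identifier (28717), without further scaling. Genes (9947) and transcripts (22618) with at least 0.5 FPKM in at least 3 libraries were fitted on log2(FPKM + 0.5) with limma 3.58.1 (lmFit, eBayes with trend) in R 4.3.3. The single fit held all 9 libraries without a replicate term, which left 6 residual degrees of freedom. Two-sided p-values were adjusted by Benjamini-Hochberg over every feature tested, and calls needed an adjusted p under 0.05. Transcript shares were compared by exact permutation. Transcript classes, exons and junctions come from GENCODE V29 (GRCh38), and coordinates from the deposited table.

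The smallest value above 0 was 1e-06 FPKM, so whole reads could not be recovered and no counting interval is given. Same-numbered libraries of different groups correlated at -0.036 to 0.08 in their gene deviations, and differently numbered ones at -0.082 to 0.047. Between 5-FU and H2O2 the same-numbered pairs stood at 0.016 to 0.08, above the differently numbered ones at -0.082 to 0.012. All these correlations were small, and the numbers were not taken as pairs. Members and lists were chosen with earlier results of these data known. Named are all members with rows, a part of their transcripts, the 2 most abundant tested genes of each list and the 3 genes most like VEGFA. ENO2, PFKL, PFKM, HKDC1, EGLN3, MIR210HG, SLC2A1-DT, KRT8 and KRT19 were named after their values were seen. Alternatives covered the pseudocount, the filter, scaling, array weights, the groups fitted, the replicate block and left-out libraries.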

Additional observations from a re-analysis of the deposited data

How the results depend on the processing

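Across 504 alternative values of the members, each for 1 member, comparison and setting, 479 kept the sign of the log2 difference, 25 turned it and 0 gave a call. Many of these settings cannot move a difference, such as the filter, the block or a left-out library of the group not compared. The kept signs therefore do not measure how stable the differences are. The 504 include the sums without the most abundant transcript, added after the data were seen. With the replicate block, 0 genes and 0 transcripts were called in any comparison, and no member was. Leaving out 1 library at a time gave -0.072 to 0.35 for SLC2A1, -0.28 to 0.04 for ALDOA and 0.148 to 0.347 for NDRG1, 0.121 to 0.415 for HK2, 0.275 to 0.761 for PFKFB3 and 0.143 to 0.413 for LDHA in 5-FU against control. In H2O2 against control it gave -0.32 to 0.061 for PFKP, -0.058 to 0.38 for ALDOA, -0.11 to 0.036 for ENO1, -0.41 to 0.43 for NDRG1, 0.134 to 0.599 for SLC2A1, 0.252 to 0.667 for HK2, 0.306 to 0.52 for PFKFB3 and 0.24 to 0.594 for LDHA. Between 5-FU and H2O2 it gave -0.37 to 0.049 for HK2, -0.10 to 0.38 for PFKFB3, -0.30 to 0.055 for LDHA and -0.18 to 0.66 for NDRG1. Dropping replicate 3 of both treatments turned ALDOA to 0.024 (5-FU), -0.058 (H2O2) and 0.082 (5-FU against H2O2), PFKP to 0.061 (H2O2) and HK2 to 0.16 (5-FU against H2O2). Summing without the most abundant transcript turned ALDOA to -0.016, ENO1 to 0.044 and NDRG1 to 0.61 in H2O2, and NDRG1 to -0.18 between the treatments. The cause of these turns was not tested.

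Counts of called features moved more. In 5-FU against control 77 genes were called in the reported fit, 112 with array weights, 48 without the filter, 21 with the 2 groups alone, 3 with both replicates 3 dropped and 0 with the block. Leaving out 1 library gave 0 (5-FU replicate 2) to 89 (H2O2 replicate 3). In H2O2 against control the 0 genes became 6 with both replicates 3 dropped and 0 to 3 with 1 library left out. Between the treatments the 7 genes became 3 with array weights, 0 without the filter, with 2 groups or with the block, 4 with both replicates 3 dropped and 0 to 4 with 1 library left out.

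Of transcripts, 1 was called in 5-FU against control, and 3 with array weights, with median-of-ratios scaling or with a pseudocount of 0.1, 0 with a 1 FPKM minimum, a pseudocount of 1 or the block, 17 without the filter, 6 with 2 groups, 2 with replicates 3 dropped and 0 to 6 with 1 library left out. In H2O2 against control 3 became 7 with array weights or without the filter, 2 with the 1 FPKM minimum, 4 with scaling or a pseudocount of 1, 9 with 2 groups, 5 with a pseudocount of 0.1, 0 with the block, 11 with replicates 3 dropped and 0 to 8 with 1 library left out. Between the treatments 3 became 1 with the 1 FPKM minimum, 0 without the filter or with the block, 5 with 2 groups or a pseudocount of 0.1, 2 with a pseudocount of 1, 6 with replicates 3 dropped and 0 to 8 with 1 library left out. Scaling moved the median of all genes by less than 0.1. Sequencing depth is unknown, so the counting error of low values such as those of HK2 and PFKFB3 could not be estimated.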
